A study of Caenorhabditis elegans with 2 samples.

Results

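The genes described here are the small nucleolar RNA (snoRNA) genes of Caenorhabditis elegans that stand outside protein-coding genes, and the question is where LIR-3 was found at their starts. Membership rested on annotation, though this set was chosen with earlier results of these data known. Members are all nuclear genes of biotype snoRNA in the Ensembl annotation of WBcel235 that do not lie wholly within a protein-coding gene's span. This rule gave 130 of 346 annotated snoRNA genes. The other 216 are nested in protein-coding genes. RefSeq lists all 130 as snoRNA genes with the same start and end. LIR-3 was mapped by chromatin immunoprecipitation with sequencing (ChIP-seq) in 2 biological replicates of strain OP312. This strain carries the mutation unc-119(ed3) and the transgene wgIs312, from which LIR-3 is made with GFP and FLAG at its C-terminus, and the precipitation was with an antibody to GFP, per the sample description. The antibody field of the labels names lir-3 instead. An antibody to LIR-3 itself would also take up untagged protein, and the files do not settle which was used. Whole hermaphrodites were taken as L4 larvae, 48 hours after release from L1 starvation, so signals are averages over all tissues of the animal. Both replicates belong to 1 group, and comparisons are therefore between kinds of gene. The labels give no promoter for the transgene. Peak lists hold no read counts, so depth is unknown, and a mock precipitation is not analysed here.

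Small nucleolar RNAs guide the chemical modification of ribosomal and other RNAs: those with boxes C and D direct methylation of the ribose, and those with boxes H and ACA direct the conversion of uridine to pseudouridine. In many animals most snoRNAs are cut out of introns of their host genes, whereas a snoRNA gene that stands alone needs a promoter of its own. RNA polymerase III reads promoters inside tRNA genes that consist of an A box and a B box, and it ends transcription at runs of T. LIR-3 belongs to the LIN-26 family of zinc-finger proteins. No target RNA is named for the single snoRNAs below in the annotation used here.

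The promoters at the strongest peaks are shown because many hold the letters of an A box and a B box upstream of the snoRNA. Each line gives 120 bases on the strand of the gene, 100 bases before its start and then its first 20 bases, from the RefSeq sequence of WBcel235, which has the coordinates of ce11. Capitals mark matches to the A box consensus of tRNA genes and to the B box letters GTTCNANNC on that strand. They are the 8 members of highest signal outside 1 chromosome whose sequence is not printed, and the bases lie at II:11960798-11960917 on the plus strand, V:15873907-15874026 and V:15191074-15191193 on the minus strand, IV:7574022-7574141 on the plus strand, II:8107251-8107370 on the minus strand, X:6867838-6867957 on the plus strand, II:15166009-15166128 on the minus strand and III:502704-502823 on the plus strand. Of the 8, W03C9.9, Y75B12B.12, F32E10.10 and C41C4.11 hold both boxes, C53B7.8 and F30H5.4 the B box, T06C12.16 the A box and Y53F4B.48 neither on this strand.
W03C9.9: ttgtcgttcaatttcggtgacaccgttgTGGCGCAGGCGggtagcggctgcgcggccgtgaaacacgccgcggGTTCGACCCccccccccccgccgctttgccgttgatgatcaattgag
T06C12.16: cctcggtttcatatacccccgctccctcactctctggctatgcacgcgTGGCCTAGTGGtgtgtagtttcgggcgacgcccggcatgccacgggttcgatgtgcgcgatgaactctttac
Y75B12B.12: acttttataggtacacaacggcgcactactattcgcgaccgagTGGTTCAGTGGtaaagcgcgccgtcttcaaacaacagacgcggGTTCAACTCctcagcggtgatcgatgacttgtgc
F32E10.10: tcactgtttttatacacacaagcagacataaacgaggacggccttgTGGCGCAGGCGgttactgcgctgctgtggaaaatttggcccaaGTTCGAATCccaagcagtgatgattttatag
C41C4.11: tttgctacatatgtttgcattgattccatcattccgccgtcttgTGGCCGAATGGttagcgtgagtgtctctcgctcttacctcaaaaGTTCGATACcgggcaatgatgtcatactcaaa
C53B7.8: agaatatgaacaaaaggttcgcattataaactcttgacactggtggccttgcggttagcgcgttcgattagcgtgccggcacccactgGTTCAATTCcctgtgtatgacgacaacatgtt
Y53F4B.48: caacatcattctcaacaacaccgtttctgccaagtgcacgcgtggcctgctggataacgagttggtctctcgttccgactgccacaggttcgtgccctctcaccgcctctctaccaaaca
F30H5.4: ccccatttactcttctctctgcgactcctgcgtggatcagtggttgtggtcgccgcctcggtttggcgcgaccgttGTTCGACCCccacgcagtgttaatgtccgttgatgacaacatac

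For contrast, 4 members without a summit in any list follow. With the same chromosome left out, the first 2 in order of name were C06E7.95 (IV:5833040-5833159, minus strand) and C14E2.12 (X:1831743-1831862, minus strand). The other 2, picked after their sequences were seen because they hold the B box letters upstream of the start, were T27A8.9 (X:16061376-16061495, minus strand) and Y59E1B.14 (X:1891409-1891528, plus strand).
C06E7.95: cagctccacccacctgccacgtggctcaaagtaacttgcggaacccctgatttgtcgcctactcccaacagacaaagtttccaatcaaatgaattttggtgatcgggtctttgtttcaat
C14E2.12: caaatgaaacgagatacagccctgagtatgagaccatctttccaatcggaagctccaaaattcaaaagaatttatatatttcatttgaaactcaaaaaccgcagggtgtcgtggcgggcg
T27A8.9: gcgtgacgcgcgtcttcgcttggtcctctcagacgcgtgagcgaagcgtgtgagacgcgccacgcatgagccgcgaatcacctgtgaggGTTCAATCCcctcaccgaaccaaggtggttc
Y59E1B.14: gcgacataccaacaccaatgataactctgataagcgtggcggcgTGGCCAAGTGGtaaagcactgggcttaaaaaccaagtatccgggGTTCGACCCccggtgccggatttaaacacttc

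A peak from the thresholded list lay at 26 of the 130 genes. This list, made by the submitters with the irreproducible discovery rate (IDR) method, holds the 552 peaks of highest signal in the pool of both replicates. A gene was counted where its start had a peak summit at most 500 bp before it or 200 bp after it. The share was 20% (95% Wilson interval 14.0 to 27.7, counting error over genes only), and each of the 26 genes had a peak of its own. Among all 31527 nuclear genes other than piRNA genes, 743 had such a summit (2.36%). In the relaxed lists, which by design also hold background, a summit lay at 67 members in the pooled list (51.5%, against 20.8% of all nuclear genes), at 57 members in replicate 1 (43.8%, against 18.1%) and at 63 members in replicate 2 (48.5%, against 20.6%). Both replicates' relaxed lists had a summit at 44 members, and 53 members had none in any list. The members are not uniform in annotation. Most members without an IDR summit carry gene identifiers in the run from WBGene00219788 to WBGene00220248. Among members with identifiers in this run, only M7.15 (WBGene00220032) had an IDR summit, so the share of 20% joins unlike groups.

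The replicates taken singly gave nearly the same genes. Among the 552 strongest peaks of replicate 1, as many as the IDR list holds, a summit lay at 25 members (19.2%, against 2.16% of all nuclear genes), and all 25 were among the 26. Among the 552 strongest of replicate 2, a summit lay at 28 members (21.5%, against 2.29%), of which 25 were among the 26. The IDR list was made from these same replicates, so this overlap is not independent of the choice. K09E9.5 was the member of the 26 without such a peak in replicate 1, and M7.15 the one without it in replicate 2.

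Whether a snoRNA gene lay outside or inside a protein-coding gene made no difference that was detectable with these counts. An IDR summit lay at 26 of 130 outside genes (20%) and at 34 of 216 nested genes (15.7%), with an odds ratio of 1.34 and a 95% interval from 0.727 to 2.44 (p = 0.413 in the two-sided Fisher's exact test, adjusted over 4 tests). This interval still allows the share to be lower or higher outside, and the odds ratio turned to 0.978 when 7 members whose summit also lay in the window of a protein-coding start were left out. Nuclear tRNA genes had a summit more often, at 222 of 612 (36.3%), and the odds of outside snoRNA genes were 0.440 times theirs (interval 0.266 to 0.706, adjusted p = 0.000627 in Fisher's exact test). That call was lost with only the 276 IDR peaks of highest signal (odds ratio 0.879, with an adjusted p of 0.939 in Fisher's exact test) and when a summit counted only for the nearest gene start (odds ratio 0.760, with an adjusted p of 0.403 in Fisher's exact test). Neighbouring genes and tRNA genes that share a peak are not independent.

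The strongest peak was at W03C9.9 (WBGene00045127, II:11960898-11960959), a gene of 62 bp. Each signal value is a score given to the peak by its caller, in units the deposited lists do not state, and is compared only within a list. Its signal was 310.1 in the IDR list, 163.7 in replicate 1 (rank 34 of 17311 peaks) and 149.8 in replicate 2 (rank 33 of 20601 peaks). In both replicates it stood first among the members. Its summit lay at position -68, counted in bp from the gene start with negative values upstream, and at -59 and -68 in replicates 1 and 2.

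T06C12.16 (V:15873855-15873926) followed with a signal of 234.2, with 120.5 in replicate 1 and 108.7 in replicate 2. Its summit lay at -16 in all 3 lists, the smallest spread in position among the 26. Y23H5B.10 (I:2514168-2514311) had 233.0, with 116.1 and 113.9, at -24, -9 and -24, and lies far from any protein-coding start, the nearest being 16177 bp away. Y75B12B.12 (V:15190976-15191093) had 231.7, with 143.5 and 100.1. At this gene the replicates put the summit on different sides of the start, at -43 in replicate 1 and at 49 in replicate 2, and in the IDR list it lay at 56. ZK265.10 (I:8259437-8259498) had 226.1, with 117.3 and 111.9, and its summits lay at -61 in the IDR list and at -20 and -61 in the replicates. T19B4.8 (I:5707046-5707119) had 223.1, with 138.1 and 86.8, at -41, -41 and -54. The rank of T19B4.8 was 50 in replicate 1 and 107 in replicate 2, a wider gap than at the genes above it.

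Signals of the next 6 members were close to one another. F32E10.10 (IV:7574122-7574191) had 202.5 in the IDR list, with 110.4 in replicate 1 and 93.0 in replicate 2, and summits at -42, -8 and -42. T02E1.9 (I:8224474-8224544) had 201.8, with 104.7 and 98.7, at -31, -77 and -20 in the same order. C41C4.11 (II:8107196-8107270) had 183.3, with 105.4 and 79.3, at 6, 10 and 6. In replicate 1 alone C41C4.11 stood just above T02E1.9, and in replicate 2 T02E1.9 led the 3. C53B7.8 (X:6867938-6868008) had 182.7, with 83.7 and 98.8, at -13, -26 and -13, and was the stronger of the only 2 members on X with an IDR summit. Y53F4B.48 (II:15165894-15166028) had 180.1, with 96.1 and 76.4, at -54, -66 and -54. F30H5.4 (III:502804-502889) had 169.3, with 78.5 and 95.7, at -42, -95 and -32. Both C53B7.8 and F30H5.4 ranked higher in replicate 2 (74 and 82) than in replicate 1 (146 and 174).

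**Figure D1:**
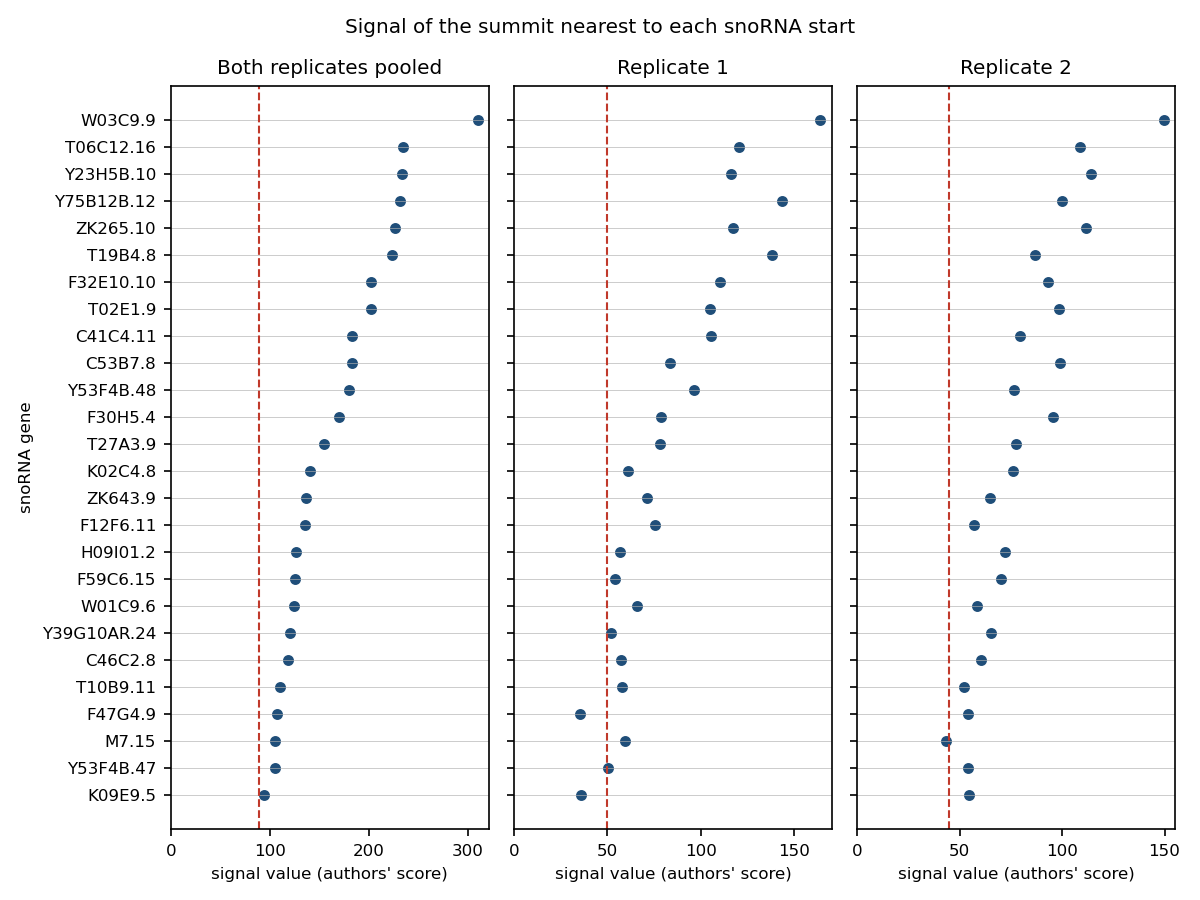
Signal value (authors' score) of the summit nearest to the start of each of the 26 snoRNA genes with an IDR summit, in the pooled list and in each replicate, with a dashed line at the signal of the peak ranked 552 in that list. W03C9.9 leads every panel with 310.1, 163.7 and 149.8, and most genes stand right of the line in both replicates.

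The remaining 14 members with an IDR summit had signals from 94.2 to 154.6. In descending order they were T27A3.9, K02C4.8, ZK643.9, F12F6.11, H09I01.2, F59C6.15, W01C9.6, Y39G10AR.24, C46C2.8, T10B9.11, F47G4.9, M7.15, Y53F4B.47 and K09E9.5. The lowest IDR signal of any kind was 88.9, so K09E9.5 (94.2, rank 1361 in replicate 1 and 327 in replicate 2) lay near that limit. At F47G4.9 the nearest summit in replicate 1 was a weak one (signal 35.3, at -75), while the summit in replicate 2 lay at 40 (54.0). Y53F4B.47 had 2 IDR summits in its window, the nearer at -71 (105.2) and the stronger at 129 (124.8), on either side of a gene of 80 bp. Over the 26 genes the median IDR signal was 147.5, against 118.6 over all 530 nuclear IDR peaks, 156.0 over 33 peaks at nested snoRNA genes and 120.1 over 191 peaks at nuclear tRNA genes.

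Summits lay just upstream of the snoRNA. The median position was -40.5 bp (quartiles -52.8 and -13.8, range -157 to 56, 26 genes), and 20 of the 26 lay within 80 bp upstream of the start. Of the 26, 21 (80.8%) were upstream and 5 were inside the gene, at Y75B12B.12, K02C4.8, F47G4.9, K09E9.5 and C41C4.11. The farthest upstream was that of M7.15 (-157), with -135 in replicate 1 and -120 in replicate 2. In the replicates' own lists the nearest summits at these genes had medians of -41 bp (replicate 1) and -32.5 bp (replicate 2), with 22 and 21 upstream. The 2 replicates' summits were a median of 18 bp apart, within 50 bp at 20 genes and 115 bp apart at most. At 3 genes they lay on opposite sides of the start, so single positions are not exact to the base.

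At nuclear tRNA genes, whose promoter is internal, summits lay further downstream. The median there was 15 bp, and 73 of 222 tRNA genes (32.9%) had their nearest IDR summit upstream, against 80.8% of the outside snoRNA genes (adjusted p = 1.95e-05 in the two-sided Fisher's exact test, with an odds ratio of 8.50 between 2.96 and 30.01). At nested snoRNA genes the median was -28 bp with 25 of 34 upstream (73.5%), and the share did not pass the test against the outside genes (adjusted p = 0.555 in Fisher's exact test, with an odds ratio of 1.50 between 0.380 and 6.64). With the 276 strongest peaks that odds ratio was 0.813, on the other side of 1.

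**Figure D2:**
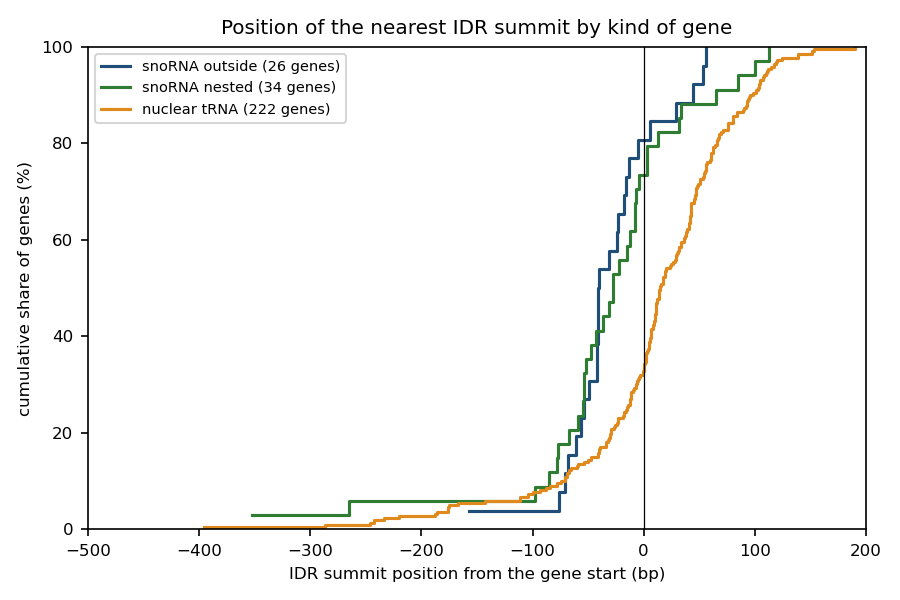
Cumulative share of genes (%) by the position of the nearest IDR summit (bp from the gene start, negative upstream) for 26 outside snoRNA, 34 nested snoRNA and 222 nuclear tRNA genes. Both snoRNA curves rise before the start, with medians of -40.5 and -28 bp, and the tRNA curve rises after it, with a median of 15 bp.

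The upstream position coincided with sequences that resemble a tRNA promoter placed before the gene. The B box letters GTTCNANNC were searched from 250 bp upstream to 50 bp downstream of each start, a window of 300 bp. On the strand of the gene they were present at 13 of the 26 members with an IDR summit (50%, 32.1 to 67.9), at 6 of the 104 members without (5.77%) and at 1707 of the 31527 nuclear genes (5.41%). Nested snoRNA genes also held them more often with an IDR summit, at 13 of 34 (38.2%), than without, at 19 of 182 (10.4%). On either strand the counts were 13 of 26, 13 of 104 (12.5%) and 10.7% of nuclear genes. All 13 matches at genes with an IDR summit began between -27 and -8, with a median of -14. At W03C9.9 the B box began at -27, at F32E10.10 at -11, at C41C4.11 and C53B7.8 at -12 and at F30H5.4 at -24, as the capitals in their promoters show. The summit lay upstream of the B box at 11 of the 13 and within 40 bp of its first base at 10. The genes were sorted here by the presence of a peak, and these shares are descriptions with no test. Most members without an IDR summit come from the run of gene identifiers named above, so the contrast with them also compares annotation groups. A match shows the letters only, not a site in use.

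A narrower band, chosen after these positions were seen, separated the members more sharply. The B box letters began within 40 bp upstream of the start, on the gene's strand, at 16 members, of which 13 had an IDR summit. Over all nuclear genes they did so at 218 (0.691%). Each replicate alone gave a summit among its 552 strongest peaks at 13 of these 16 members (81.3%), against 12 of the other 114 in replicate 1 (10.5%) and 15 of 114 in replicate 2 (13.2%). The band was set on genes called from these same replicates, so the replicate counts are not independent of that choice. The 3 members with the letters and no IDR summit were T27A8.9 and Y59E1B.14, with no summit in any list, and ZC395.12, where the pooled signal was 35.4 at -152. An annotated ncRNA on the opposite strand reaches barely into the 100 bp upstream at C41C4.11 and T19B4.8. At T27A3.9 an annotated ncRNA on the same strand (T27A3.12, 62 bp) holds the B box, which begins at -13, and the IDR summit at -56. At Y59E1B.14 the A box and the B box lie in an annotated pseudogene of 72 bp, Y59E1B.t1, that overlaps the start of the snoRNA. The sequence of T27A8.9 occurs 2 times in the genome, but only 1 time when the 100 bp upstream are included. At the 26 genes with an IDR summit each sequence occurs once.

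The A box preceded the B box at the distance found inside tRNA genes. The A box consensus of tRNA genes, a degenerate motif of 11 letters, followed on the same strand by the B box letters, with 30 to 70 bp from the first base of one to that of the other, was present at 8 of the 26 members with an IDR summit (30.8%). It was present at 1 of the 104 members without (0.962%), at 9 of 34 nested snoRNA genes with an IDR summit (26.5%), at 4 of 182 nested genes without (2.20%) and at 107 of the 31527 nuclear genes (0.339%). The 8 were W03C9.9, Y75B12B.12, T19B4.8, F32E10.10, T02E1.9, C41C4.11, Y39G10AR.24 and T10B9.11, and 6 of them were among the 9 members of highest signal. Their A boxes began between -76 and -54. Spacing from A box to B box had a median of 44 bp (39 to 62), and inside the 562 of 612 nuclear tRNA genes that hold the same pair it also had a median of 44 bp (35 to 68), with the range limited by the search. The -76 and the 62 bp both come from Y39G10AR.24, where a second A box match at -59 also precedes the B box at -14 and was not the one taken. The spacing rule was added after the data were examined.

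The boxes were also counted with other letters. The A box consensus, on either strand, matched at 14 of the 26 (53.8%), 21 of the 104 (20.2%) and 19.4% of nuclear genes. The degenerate B box consensus, on either strand, matched at 16 of the 26 (61.5%), 14 of the 104 (13.5%) and 11.3% of nuclear genes. The fixed A box letters TGGCNNAGT, on either strand, were at 4 of the 26 (15.4%), 8 of the 104 (7.69%) and 2.91% of nuclear genes. TATAAA on the gene's strand was at 6 of the 26 (23.1%), 21 of the 104 (20.2%) and 21.4% of nuclear genes, shares that lie within the interval of the first (11.03 to 42.1). At T06C12.16, second in signal, the A box consensus matched at -52 but the B box letters did not. A group of 7 members had an IDR summit and matched neither the A box consensus nor the B box letters on either strand: K02C4.8, H09I01.2, F59C6.15, W01C9.6, F47G4.9, M7.15 and Y53F4B.47. The highest signal among the 7 was the 140.4 of K02C4.8. Of these, K02C4.8 matched the degenerate B box consensus at -10, H09I01.2 at 10 and M7.15 at -142.

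Runs of T followed the genes with peaks. TTTT stood within 40 bp after the annotated end at 23 of the 26 members with an IDR summit (88.5%), against 49 of 104 without (47.1%) and 53.2% of all nuclear genes. Among nested snoRNA genes it stood there at 30 of 34 with an IDR summit (88.2%) and 113 of 182 without (62.1%). Within 10 bp after the end, a limit chosen after the data were seen, it was at 17 of 26 (65.4%), 16 of 104 (15.4%), 19 of 34 nested snoRNA genes with an IDR summit (55.9%), 37 of 182 nested genes without (20.3%) and 21.1% of nuclear genes. At W03C9.9 and T06C12.16 the run began with the first base after the gene. At 7 of the 8 genes with both boxes a run of T followed within 40 bp, F32E10.10 being the exception.

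**Figure D3:**
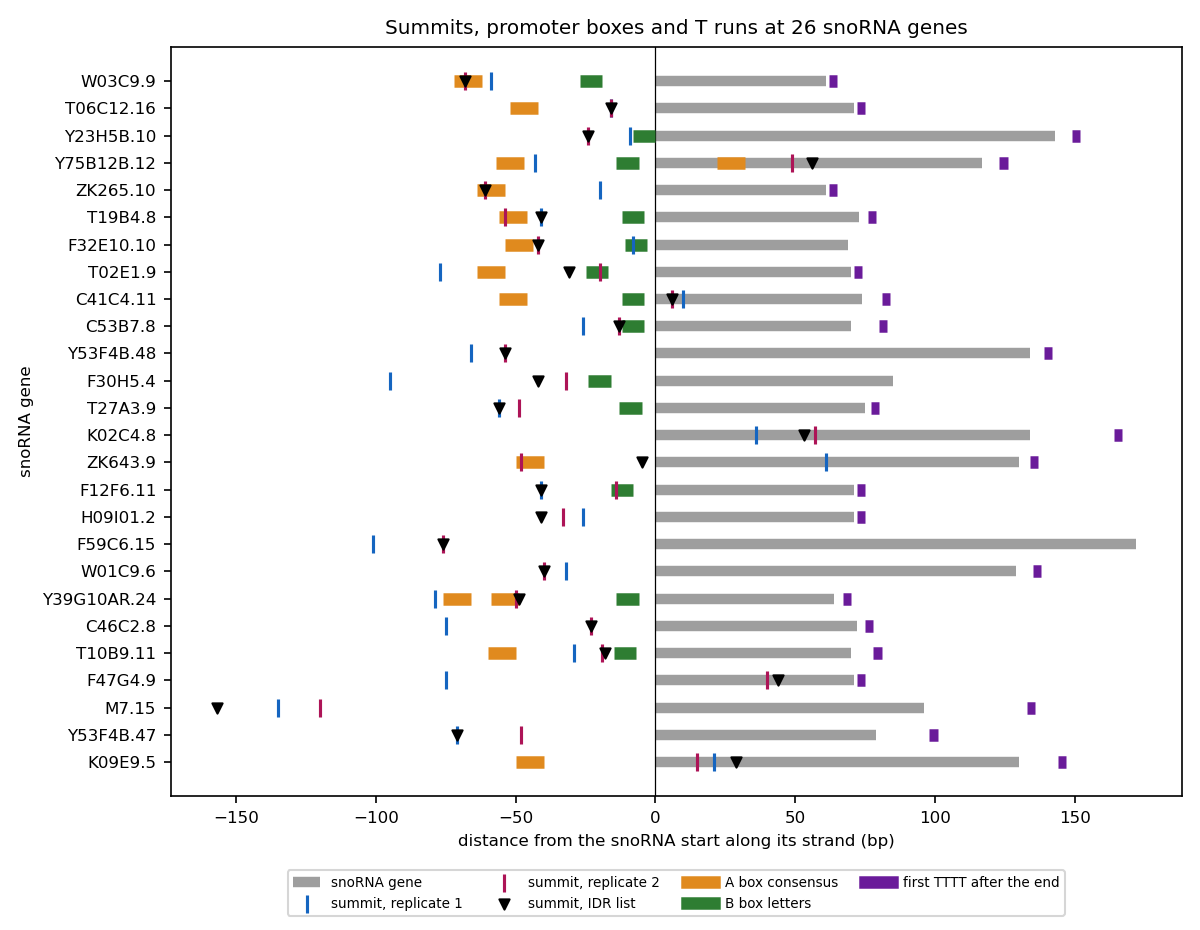
Map of the 26 snoRNA genes with an IDR summit, in order of signal, with distance from the gene start in bp: grey bars are genes, orange and green blocks A box consensus and B box letters on the gene's strand, purple blocks the first TTTT after the gene, ticks the replicates' nearest summits and triangles the IDR summits. Summits, with a median of -40.5 bp, lie among the boxes, and B boxes begin between -27 and -8 where they are present.

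**Figure D4:**
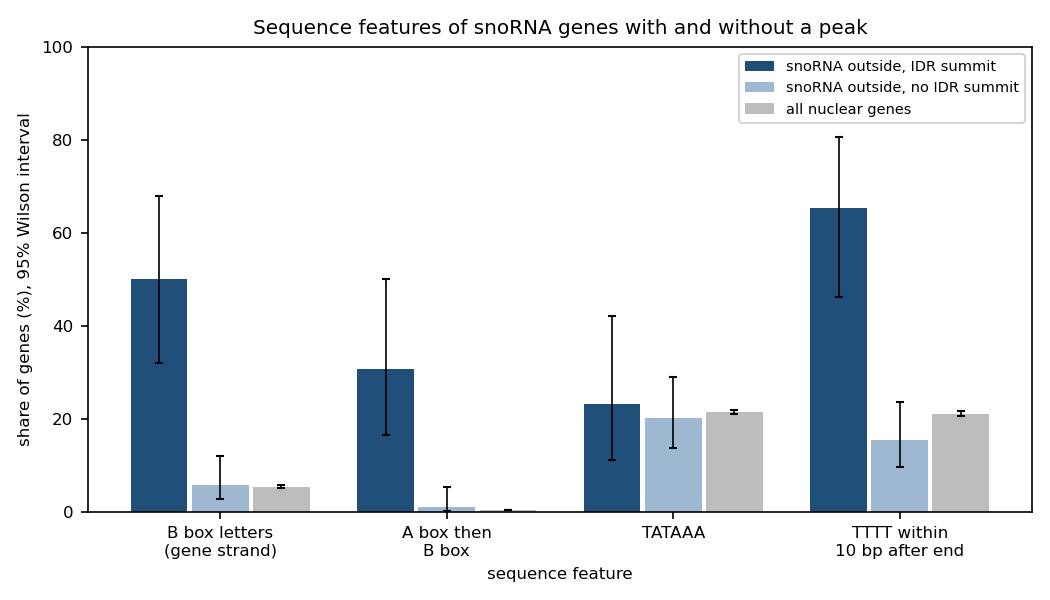
Share of genes (%, bars, with 95% Wilson intervals) that hold each sequence feature, for 26 members with an IDR summit, 104 members without and 31527 nuclear genes. B box letters on the gene's strand are at 50%, 5.77% and 5.41% in that order, and TATAAA is at 23.1%, 20.2% and 21.4%. Nested snoRNA genes, not drawn, hold the B box letters at 38.2% with an IDR summit and 10.4% without.

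Genes with peaks were short. The median annotated length was 74.5 bp (62 to 173) at the 26 members with an IDR summit and 156 bp (64 to 344) at the 104 without. Most of the 104 belong to the run of gene identifiers named above, and many of those are long. The contrasts in length, box letters and T runs therefore also compare members within that run with members outside it. Peak and identifier run were not taken apart. An IDR summit lay at 18 of 32 members of up to 100 bp (56.3%), 7 of 40 members over 100 and up to 150 bp (17.5%) and 1 of 58 longer members (1.72%), in bins set after the data were seen. The 1 longer gene was F59C6.15 (I:10516978-10517150, 173 bp, signal 125.0). Each replicate alone gave 18 and 17 of the 32 short members and 7 and 11 of the 98 others among its 552 strongest peaks. The IDR list was made from these replicates, so their counts are not independent of it. Length and B box went together in part. All 11 short members with the upstream B box had an IDR summit, and so did 7 of 21 short members without it, 2 of 5 longer members with it and 6 of 93 longer members without it.

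**Figure D5:**
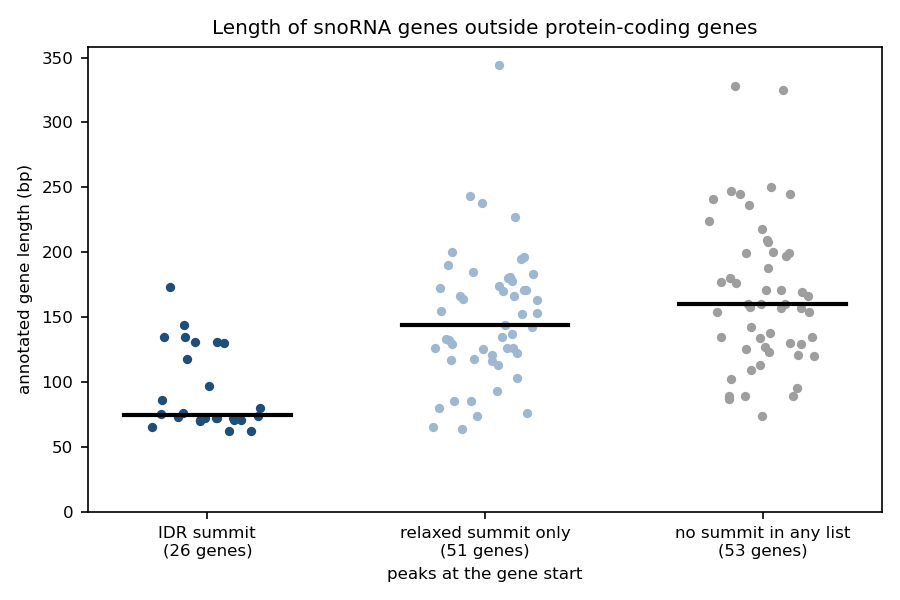
Annotated length (bp) of the 130 snoRNA genes, each a point with random sideways spread, by whether an IDR summit, a relaxed summit or no summit lay at the start, with a line at the median. Most of the 26 genes with an IDR summit are shorter than 100 bp, with a median of 74.5 bp.

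Counted over all members, the RNAs of genes with a peak more often ended in D box letters. CTGA within the last 15 bases was at 15 of the 26 members with an IDR summit (57.7%) and at 13 of the 104 without (12.5%). Outside the run of gene identifiers named above, most members held these letters both with and without an IDR summit. The contrast therefore rests on the members within that run and does not show that the letters go with a peak. The full C box letters TGATGA within the first 25 bases were at 4 of the 26 and 4 of the 104. An ACA at 3 bases from the end, allowing 2 bases either way, was at 7 of the 26 (26.9%) and 15 of the 104 (14.4%). Among nested genes the D box letters were at 12 of 34 with an IDR summit (35.3%) and 37 of 182 without (20.3%). Exact letters miss boxes with a changed base, and a string as short as CTGA is common. The 2 members with a peak and with both box C and box D letters are printed whole, as DNA on the gene's strand from the RefSeq sequence, with those letters in capitals. W03C9.9 is at II:11960898-11960959 and F30H5.4 at III:502804-502889, both on the plus strand.
W03C9.9: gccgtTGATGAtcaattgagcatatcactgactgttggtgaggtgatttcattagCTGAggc
F30H5.4: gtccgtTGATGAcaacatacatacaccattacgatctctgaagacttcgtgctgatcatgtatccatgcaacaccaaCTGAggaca

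For nearly all of these peaks the snoRNA start was the nearest gene start. It was nearest at 25 of the 26 summits, and 12 summits lay in the window of no other gene. No summit lay in the window of a tRNA gene. At 7 genes the window also took in a protein-coding start, from which the summit was farther away: Y75B12B.11 (at -259), T02E1.2 (-489), chst-1 and C41C4.9 (-293 and -381), gst-27 (-351), K02C4.2 (-198), hmg-6 (-446) and cmtr-1 (-150). Of these, gst-27 encodes a glutathione S-transferase and cmtr-1 a cap methyltransferase. The other 7 had only noncoding starts, and in all 6 genes had an annotated ncRNA running over the snoRNA on the opposite strand, as T19B4.9 does at T19B4.8 and C41C4.15 at C41C4.11. ChIP-seq does not tell strands apart, so a peak cannot be given to one of the pair. The nearest protein-coding start was a median of 979 bp away at the 26 genes and 1750.5 bp away at the 104.

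Some genes stood at the edge of the rule. In part, 6 members overlap a protein-coding gene, and 3 of these had an IDR summit: T02E1.9 overlaps spe-12 by 6 bp, T27A3.9 overlaps T27A3.8 by 3 bp and W01C9.6 overlaps glb-27 by 2 bp. T23G11.12, with a relaxed summit only, lies in T23G11.11 with 133 of its 137 bp. Without the 6, an IDR summit lay at 23 of 124 (18.5%). W01H2.11 (X:4222324-4222465) missed the window, with an IDR summit at -545 (signal 116.4), while its summit in replicate 2 was inside the window at -484 (79.2, rank 138).

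Of the 104 members without an IDR summit, 53 had no summit in any list and 51 had a relaxed one. Their highest pooled signals were 83.6 at W06H8.17, 76.0 at Y67A10A.14, 65.5 at W03B1.17, 60.1 at F25H2.15 and 59.3 at F37F2.4. All must lie below the lowest IDR signal of 88.9, because the IDR list holds the pooled peaks of highest signal. W06H8.17 (V:6227355-6227550) had 72.4 in replicate 2 (rank 174, at -135) and 23.5 in replicate 1 (rank 5952, at -286), so 1 library carried its signal. Y67A10A.14 (IV:14326948-14327121) ranked higher in replicate 1 (signal 47.1, rank 622, at -55) than in replicate 2 (signal 29.0, rank 1897, at -73). Both summits were upstream of the start, whereas the next pair in signal had theirs after it. W03B1.17 had 40.8 in replicate 1 (rank 952, at 187) and no summit in the window in replicate 2. F25H2.15 had 43.7 in replicate 1 (rank 769, at 164) and 24.0 in replicate 2 (rank 3516, at 75). F37F2.4 had 29.9 (rank 2549, at -259) and 28.9 (rank 1909, at -240), so its replicates placed a weak summit within 50 bp of each other. T21B4.20 had a summit of rank 479 in replicate 2 and none in its window in replicate 1. At the 41 members with a pooled summit but no IDR summit, positions spread from -455 to 194 with a median of -81, and 27 were upstream (65.9%).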

How the data were processed

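ChIP-seq peak lists on build ce11 were used: the optimal IDR list (552 peaks), the pooled relaxed list (20360) and 1 relaxed list for each of 2 replicates (17311 and 20601). The relaxed lists were made as input for IDR, per the deposited file listing. The sources used here do not give the aligner, the peak caller, their versions or the read depth. Signal is a score per peak, deposited by the authors, and summits were placed by the offsets in the deposited lists. Genes are the unit of all tests. The replicates were also read singly, by the 552 strongest peaks of each. Nothing says how separate the 2 cultures were.

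Gene positions came from the Ensembl annotation of WBcel235 (ce11 coordinates, 1-based) and sequence from RefSeq. The nearest summit in the window stands for a gene. Shares carry 95% Wilson intervals. The 4 tests between kinds of gene were two-sided Fisher's exact tests with Benjamini-Hochberg adjustment and a threshold of 0.05. The strand searched is given with each motif, and letters in the RNA or after its end were searched on the gene's strand. The members, letters and tests were chosen with earlier results of these data known. The A and B box pair, the bands of 40 and 10 bp, the length bins, the exact copies and the shared windows were added after the data were examined. All 26 genes with an IDR summit are named, with signals and positions in each list for the 12 of highest signal, and replicate signals, ranks and positions for the 5 strongest members without one. The code was tested on simulated summits and motifs. Python 3.11.15, numpy 2.4.6, scipy 1.17.1 and matplotlib 3.10.9 were used. The ce10 lists were not used.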

Additional observations from a re-analysis of the deposited data

How the results depend on the processing

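Alternatives were the 276 IDR peaks of highest signal, each replicate's 552 strongest peaks, windows of 1000 bp upstream or of 250 bp upstream and 100 bp downstream, overlap of whole peaks, the nearest start only, members that overlap no coding gene and 1 gene per peak. Added after the data were seen were members with 1 exact copy and the omission of 7 members whose summit is also near a coding start. The share of members with an IDR summit stayed within its interval in all of these, from 15.4% to 21.5%, and the median position from -41 to -36.5 bp. Without replicate 1 or replicate 2 the share was 21.5% and 19.2%. The difference in position from tRNA genes kept its call in every alternative that gives a position (odds ratios 7.29 to 36.3, adjusted p at most 0.000170, Fisher's exact test), whole peaks giving none. Fewer summits than at tRNA genes lost the call with the 276 strongest peaks (odds ratio 0.879) and with the nearest start only (0.760), and the cause was not tested. Against nested genes, where no alternative passed the threshold, the odds ratio turned to 0.978 without those 7 members, and that of the upstream share turned to 0.813 with the 276 peaks. The share of promoters with a B box on either strand fell from 50% to 30.8% at members with an IDR summit and from 12.5% to 3.85% at the others with stricter letters (GTTCGANNC), and in 100 bp upstream the latter was 4.81%. No paired analysis was possible because both samples form 1 group. Depth is unknown, so weak summits may be missed.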

Other observations

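Members with an IDR summit were on every nuclear chromosome, at 8 of 30 genes on I, 7 of 28 on II, 2 of 10 on III, 5 of 23 on IV, 2 of 16 on V and 2 of 23 on X. The 2 on X were C53B7.8 and K09E9.5, of which K09E9.5 had the lowest signal of the 26. Both members with the upstream B box and no summit in any list, T27A8.9 and Y59E1B.14, are also on X. These counts are small and were not tested.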
